A study of Mus musculus with 4 samples.

Results

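The genes described here encode the MHC class I molecule and the machinery that loads it with peptide in 4 RNA samples of phenotypic HSCs. They were taken by symbol from the deposited expression tables: the heavy chains *H2-D1* and *H2-K1*, the light chain *B2m*, the peptide transporter subunits *Tap1* and *Tap2*, the loading factors *Tapbp*, *Calr* and *Pdia3*, the peptide-trimming enzyme *Erap1* and the transcriptional regulator *Nlrc5*. All 10 were found among the 23906 symbols listed. The cells were LSK-SLAM cells (lineage-negative, Sca1-positive, cKit-positive, CD150-positive and CD48-negative) of *BRE–GFP* transgenic mice on the C57BL/6 background, in which a BMP-responsive element drives GFP through Smad1/5. All 4 groups carried this transgene, and the labels name no treatment. GFP+ cells are called BMP activated and GFP- cells non-BMP activated, and GFP reports only the state at the time of sorting. Each tissue gave 1 GFP+ and 1 GFP- sample, from fetal liver (FL) at embryonic day 14 and from adult bone marrow (BM). The age of the adult mice sequenced and the number of animals behind a sample are not given in the sources used here.

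MHC class I molecules show peptides from inside the cell to CD8-positive T cells, and their presence also restrains natural killer cells. Proteasomes make the peptides, the TAP transporter moves them into the endoplasmic reticulum, ERAP1 trims them, and tapasin (the product of *Tapbp*), calreticulin and the oxidoreductase ERp57 (the product of *Pdia3*) hold the heavy chain with beta-2-microglobulin until a peptide binds. Interferons and the regulator NLRC5 are known to raise transcription of much of this set, and most nucleated cells, HSCs included, carry class I at the surface.

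Levels are given in FPKM, a fragment count scaled by transcript length and by library size, which allows genes to be compared by length within a sample. With 1 sample per group, a difference between single samples has no replicate check, and the tables hold no read counts per gene, so the counting error of a single value is unknown. FPKM summed to between 541453 and 1000848 per sample, highest in BM GFP+ cells. Where 4 values stand in a row, they are those of FL GFP+, FL GFP-, BM GFP+ and BM GFP- cells. Before any result, the labels were set against marker genes. *Lin28b*, a gene of fetal haematopoietic progenitors, had 2.57, 5.96, 0.0443 and 0.0587 FPKM, and *Hmga2*, *Igf2bp2* and *Igf2bp3* were also higher in both FL samples than in either BM sample, which fits the tissue labels. The embryonic globins *Hbb-y* and *Hba-x* were listed at 0 in all 4 samples. Another embryonic globin, *Hbb-bh1*, had 0.177, 4.15, 0.243 and 0, so the tissues overlapped. Of the stem cell markers, *Procr* was listed at 0 in the GFP+ sample of the BM against 60.8 to 113.5 in the other samples, and *Cd48*, whose protein the gate excludes, was highest there at 266.8. The BM GFP+ library therefore stands apart from its label in these markers. RNA of mature cells was abundant in both BM libraries and most abundant in the GFP+ one, and its values are given beside the tissue comparison.

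Sequences of 5 promoters are shown, those of the heavy chain genes and *B2m* for the regulatory elements they share and that of *Tap1* for the window it shares with *Psmb9*. They are the 250 bases before the listed transcription start, 5′ to 3′ on the gene's strand, from RefSeq on GRCm38.p6, a build used for sequence only. Of the 10 genes, 8 were matched in that table, while *Tap2* and *Nlrc5* had no entry. For *H2-K1*, which has 2 listed starts, the one farther downstream is used. Capitals mark matches on either strand to CCAAT (the letters of the Y box, bound by NF-Y) and TGACG (the core of the CRE-like X2 box). They also mark TTTCNNTTC or the ISRE consensus, which has 1 base more (elements bound by interferon regulatory factors), and the κB consensus. *H2-Q7* is included as a further heavy chain gene described later.
H2-D1 (chr17:35262844-35263093, plus strand): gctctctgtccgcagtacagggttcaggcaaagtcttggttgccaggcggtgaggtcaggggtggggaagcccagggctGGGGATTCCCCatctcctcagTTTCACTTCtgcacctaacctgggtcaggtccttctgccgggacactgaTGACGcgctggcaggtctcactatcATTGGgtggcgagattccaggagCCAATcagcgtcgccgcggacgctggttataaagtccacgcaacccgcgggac
H2-K1 (chr17:34000334-34000583, minus strand): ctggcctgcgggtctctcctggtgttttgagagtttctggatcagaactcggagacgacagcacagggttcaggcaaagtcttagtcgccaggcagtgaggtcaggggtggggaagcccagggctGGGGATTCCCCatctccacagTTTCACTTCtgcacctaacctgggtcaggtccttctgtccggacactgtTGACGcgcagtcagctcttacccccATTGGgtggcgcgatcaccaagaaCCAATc
H2-Q7 (chr17:35438905-35439154, plus strand): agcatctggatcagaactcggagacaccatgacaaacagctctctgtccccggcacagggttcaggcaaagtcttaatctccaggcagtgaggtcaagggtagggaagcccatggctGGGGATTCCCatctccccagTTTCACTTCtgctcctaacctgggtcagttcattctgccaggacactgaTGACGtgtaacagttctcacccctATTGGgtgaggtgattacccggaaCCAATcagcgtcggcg
B2m (chr2:122147437-122147686, plus strand): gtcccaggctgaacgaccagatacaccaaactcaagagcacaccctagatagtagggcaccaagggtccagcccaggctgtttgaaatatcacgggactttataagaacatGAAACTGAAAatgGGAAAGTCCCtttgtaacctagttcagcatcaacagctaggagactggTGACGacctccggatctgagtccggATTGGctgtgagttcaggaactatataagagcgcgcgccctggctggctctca
Tap1 (chr17:34187306-34187555, plus strand): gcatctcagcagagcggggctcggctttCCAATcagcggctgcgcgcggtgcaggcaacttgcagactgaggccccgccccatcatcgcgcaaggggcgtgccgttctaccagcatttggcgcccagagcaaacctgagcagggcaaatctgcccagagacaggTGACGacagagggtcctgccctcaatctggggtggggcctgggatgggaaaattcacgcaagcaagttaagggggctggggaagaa
The promoters of *H2-D1*, *H2-K1* and *H2-Q7* held the κB consensus, TTTCNNTTC, TGACG and CCAAT in this order towards the start, CCAAT at 2 positions. In *H2-D1* and *H2-K1* the κB consensus matched at 2 positions that overlap each other. The *B2m* promoter held the ISRE and κB consensus, TGACG and CCAAT. That of *Tap1* held CCAAT and TGACG, with CCAAT farther from the start. Among all 32851 promoter entries, 33.8% held CCAAT, 17.8% TGACG, 6.31% TTTCNNTTC, 3.90% the κB consensus and 2.98% the ISRE consensus. Single motifs are therefore common. The Y box, the X2 core, TTTCNNTTC and the κB consensus were found together in 11 entries of 10 genes, and 6 of these genes encode class I heavy chains (*H2-D1*, *H2-K1*, *H2-M2*, *H2-M3*, *H2-Q4* and *H2-Q7*). The *Tap1* promoter faces that of the immunoproteasome gene *Psmb9* on the other strand (chr17:34187331-34187580), so that most of the printed *Tap1* window belongs to both. *Erap1* held none of these motifs, *Tapbp* and *Calr* held CCAAT alone, and *Pdia3* held CCAAT and TGACG. A match describes the letters in this window and is not a measured binding site. CCAAT or TGACG by itself does not make a Y box or an X2 box.

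*B2m* was the most abundant member in all 4 samples, and the light chain and both heavy chains were several-fold higher in both BM samples than in either FL sample. *B2m* (on chromosome 2 from 121973422 to 121978819, all positions on NCBI37/mm9) had 780.9 FPKM in the GFP+ and 885.5 in the GFP- sample of the FL, with 4033 and 2856 in the BM. Ordered by FPKM, it was gene 114 and gene 71 of the table in the FL samples and gene 31 and gene 20 in the BM samples. *H2-D1* (chromosome 17, 35399675 to 35404444) had 307.1 and 258.5 in FL cells (GFP+ first), with 1709 and 1254 in BM cells. *H2-K1* (chromosome 17, 34132962 to 34137278) had 231.9, 271.5, 1245 and 1308 in the same order of samples. In FL GFP+ cells *H2-K1* lay below *Calr* and *Pdia3*, while in the BM samples *B2m*, *H2-D1* and *H2-K1* were the 3 highest members. For each of these 3 genes the lower BM value was above the higher FL value. As a share of a sample's summed FPKM, which does not depend on scaling between samples, *H2-D1* took 0.0475% in the GFP+ and 0.0477% in the GFP- sample of the FL, with 0.171% and 0.172% in the BM. *B2m* took 0.121% and 0.164% of the sum in the FL, against 0.403% and 0.392% in the BM.

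*H2-L* is listed with the same FPKM as *H2-D1* in all 4 samples and has no position in GENCODE vM1, so it adds no separate value. The heavy chain values carry an uncertainty of read assignment. In GENCODE vM1 transcripts, 12.8% of the 50-base windows of *H2-D1* and 7.29% of those of *H2-K1* also occur in transcripts of other genes, against 0% for *B2m*, *Erap1*, *Calr* and *Pdia3*. The window length is a choice made here, since the read length is not given in the sources used here.

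The transporter and tapasin genes, at lower levels, had the same order of tissues. *Tap1* (chromosome 17, 34324498 to 34334170), which encodes a subunit of the TAP transporter, had 19.5 in the GFP+ and 32.5 in the GFP- sample of the FL, with 130.8 and 86.4 in the BM. *Tap2* (chromosome 17, 34340472 to 34353266), the other subunit, had 45.4, 61.6, 140.3 and 112.2. *Tapbp* (chromosome 17, 34052844 to 34066235) had 46.8, 93.5, 317.8 and 161.6. In all 3 genes FL GFP+ cells were lowest and BM GFP+ cells highest, with the GFP- samples between them.

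The chaperones, which serve glycoprotein folding in general, varied less. *Calr* (chromosome 8, 87365749 to 87370833) had 286.1 and 189.8 in FL cells (GFP+ first), with 389.2 and 499.3 in BM cells. *Pdia3* (chromosome 2, 121239511 to 121264423) had 270.1, 222.4, 260.1 and 342.9, and the FL and BM values overlapped. *Erap1* (chromosome 13, 74777320 to 74829983) ran the other way, at 62.1 and 42.7 in FL cells (GFP+ first), with 25.7 and 32.3 in BM cells, and both FL values lay above both BM values. *Nlrc5* (chromosome 8, 96996663 to 97051172) was the lowest member, at 0.088, 0.409, 3.25 and 3.65 FPKM. Its FL values lie below 1 FPKM.

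**Figure D1:**
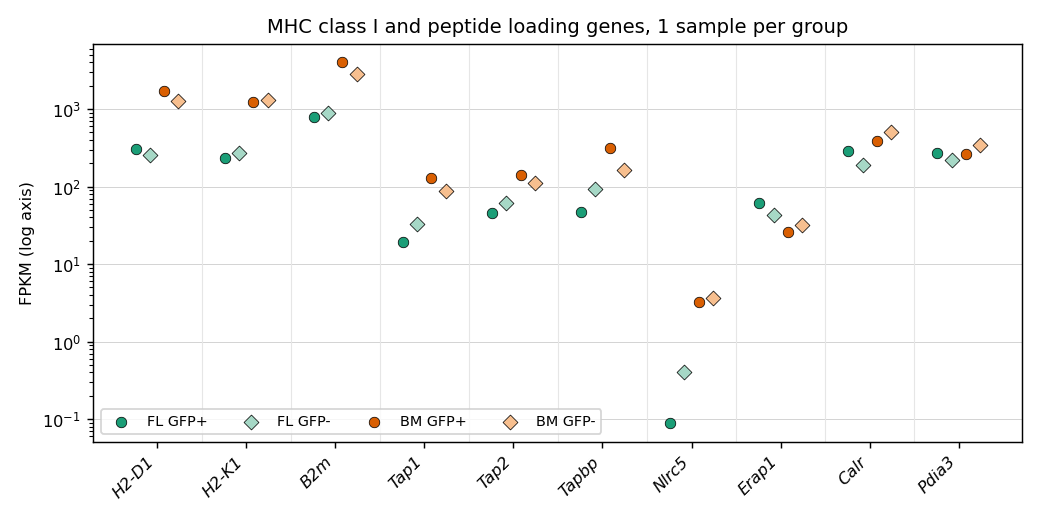
FPKM (log axis) of the 10 genes in the 4 samples, 1 point per sample, with circles for GFP+ and diamonds for GFP- cells, green for the FL and orange for the BM. Both BM points of *H2-D1*, *H2-K1*, *B2m*, *Tap1*, *Tap2*, *Tapbp*, *Nlrc5* and *Calr* lie above both FL points, those of *Erap1* lie below, and those of *Pdia3* overlap.

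The comparison of the tissues asks how class I expression of LSK-SLAM cells differs between the E14 FL and the adult BM. In GFP+ cells the FPKM was more than 2 times higher in the BM for 7 of the 10 genes and more than 2 times lower for *Erap1*, which was 2.42-fold lower. Of the 13609 genes that reach 1 FPKM in any sample, 32.1% were higher and 24.1% lower by the same rule. The BM to FL ratio in GFP+ cells was 5.56 for *H2-D1*, 5.37 for *H2-K1*, 5.16 for *B2m*, 6.71 for *Tap1*, 6.79 for *Tapbp* and 3.09 for *Tap2*. In GFP- cells 6 of the 10 were more than 2 times higher in the BM and none more than 2 times lower, against 20.0% and 19.2% of all genes. There the ratio was 4.85 for *H2-D1*, 4.82 for *H2-K1*, 3.23 for *B2m*, 2.66 for *Tap1* and 2.63 for *Calr*, while *Tap2* at 1.82 and *Tapbp* at 1.73 stayed below 2. Higher by more than 2 times in both fractions were 5 of the 10, *H2-D1*, *H2-K1*, *B2m*, *Tap1* and *Nlrc5*, against 12.2% of all genes. *Nlrc5* passed the filter only through its BM values, so its place in the counts of 7, 6 and 5 was fixed by the filter. A filter of 10 FPKM in a sample leaves out *Nlrc5* and keeps *H2-D1*, *H2-K1*, *B2m* and *Tap1*. Of the 8689 genes that pass it, 10.7% were higher in both. The median log2(FPKM + 1) ratio of the 10 genes was 2.17 in GFP+ and 1.39 in GFP- cells, and that of all genes was 0.029 and 0.034. After rescaling all samples to a common FPKM sum, 6 genes were still past 2-fold higher in GFP+ cells (24.7% of all genes) and 4 in GFP- cells (14.6%). That rescaling took the share of higher calls among all 2-fold calls from 57.2% to 41.1% in GFP+ and from 51.1% to 33.3% in GFP- cells.

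Treating the fractions as the repeats of the tissue contrast, a linear model of log2(FPKM + 1) with terms for tissue and GFP was fitted with limma to 11707 genes. *H2-D1* rose in the BM by a log2 fold change of 2.37 ± 0.29 (SE, 2 samples per tissue; limma adjusted p = 0.00418). *H2-K1* rose by 2.34 ± 0.289 (limma adjusted p = 0.00435) and *B2m* by 2.03 ± 0.325 (limma adjusted p = 0.0157). These were 3 of the 10 genes, against 2.17% of all genes tested that were called higher in the BM. *Tap1* at 2.03 ± 0.459 (limma adjusted p = 0.0631) and *Tapbp* at 1.76 ± 0.467 (limma adjusted p = 0.102) did not pass. *Tap2*, *Calr*, *Pdia3*, *Erap1* and *Nlrc5* did not pass either, with limma adjusted p from 0.15 to 0.711, and *Nlrc5* entered the fit only through its BM values. The fit has 1 residual degree of freedom per gene and draws its error from a trend over all genes. No member was called without that trend (0 of 10, limma adjusted p of 0.226 to 0.284 for the 3 genes), and none with the BM GFP+ library and the GFP term left out, a fit that *Nlrc5* did not enter. In that fit of 3 libraries the log2 fold change was 2.15 for *H2-D1* (limma adjusted p = 0.0843), 2.38 for *H2-K1* (limma adjusted p = 0.0694) and 1.78 for *B2m* (limma adjusted p = 0.118). *B2m* also lost its call with FL GFP+ left out in the same way (limma adjusted p = 0.165) and with FL GFP- left out (0.0914), and *Tap1* gained one without FL GFP- (limma adjusted p = 0.0469).

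**Figure D2:**
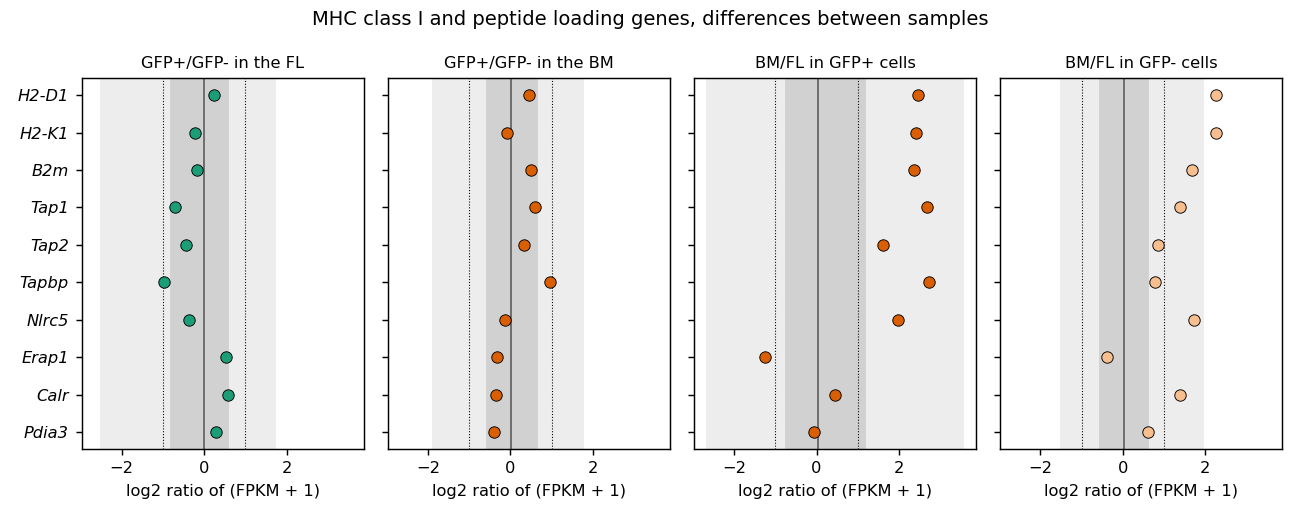
Log2 ratio of (FPKM + 1) for each of the 10 genes (rows) in the 4 comparisons (panels), 1 point each, without replicates. The dark band holds the middle 50% and the light band the middle 90% of the 13609 genes, the solid line is their median and the dotted lines mark a log2 ratio of 1 in either direction. The points for *H2-D1* and *H2-K1* lie between 2.26 and 2.47 in both tissue panels and between -0.23 and 0.45 in both GFP panels.

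Markers of several other cell types, not all of them mature, moved with the same tissue contrast. The granulocyte list includes *Elane* and *Mpo*, primary granule genes that myeloid progenitors express. *Elane* had 79.9, 11.7, 3991 and 3042 FPKM and *Mpo* 246.8, 117.0, 5777 and 4754, so the granulocyte sum is not a measure of mature cells alone. The 7 granulocyte markers summed to 354.3 FPKM in the GFP+ and 153.6 in the GFP- sample of the FL, with 58950 and 14376 in the BM, and 7 of 7 were past 2-fold higher in the BM in each fraction. The class II and dendritic cell list of 7 genes summed to 13.9, 41.3, 15407 and 4581 in that order, with 7 of 7 past 2-fold higher in GFP+ and 6 of 7 in GFP- cells. Its most abundant gene in the BM, *Cd74*, is listed with the values of *Mir5107*. The 5 B cell markers summed to 96.3, 41.9, 3327 and 870.9, with *Pax5* listed at 0 in both FL samples. T cell markers summed to 4.04, 5.39, 132.7 and 31.5, macrophage markers to 58.95, 39.1, 290.8 and 103.6, and erythroid markers to 960.9, 880.8, 20046 and 2785. The 8 stem cell markers had sums of 770.4 and 847.3 in the FL, against 397.3 and 619.8 in the BM. Hepatocyte markers summed to 326.7 in FL GFP+ and to between 5.93 and 23.7 in the other samples. Endothelial markers summed to between 42.6 and 88.1. The part of these cells in the class I difference was not tested. In bulk samples, a larger share of cells with high class I and more class I RNA per cell cannot be told apart. Between the BM fractions, the log2 ratio of the sums in GFP+ over GFP- cells was 2.04 for the granulocyte and 1.75 for the class II list. Within the granulocyte list it was 0.39 for *Elane* and 0.28 for *Mpo*, and from 1.98 (*Ltf*) to 3.16 (*Camp*) for the rest. On the same log2 scale it was 0.446 for *H2-D1*, 0.498 for *B2m* and -0.072 for *H2-K1*.

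**Figure D3:**
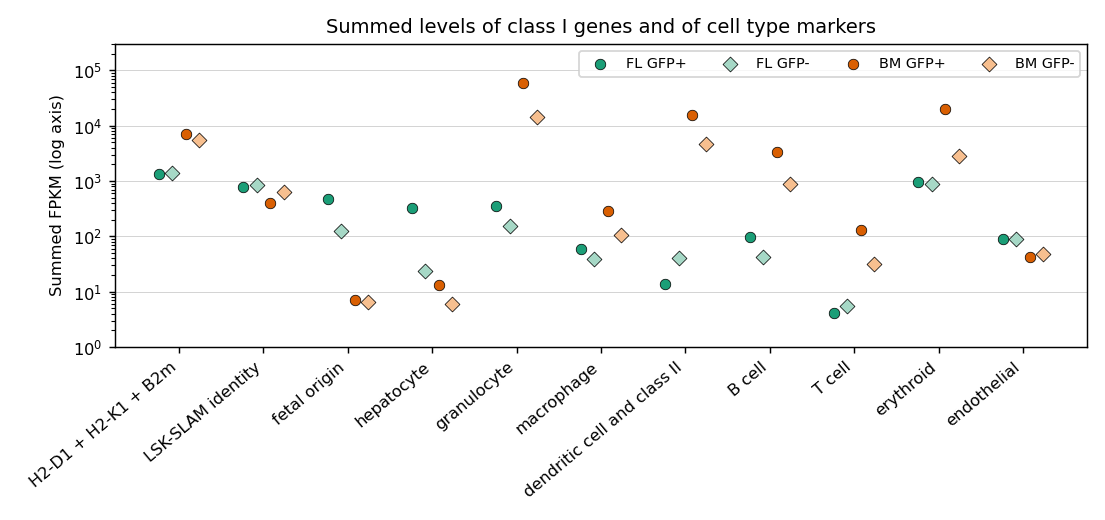
Summed FPKM (log axis) of *H2-D1*, *H2-K1* and *B2m* together and of each marker list in the 4 samples, 1 point per sample. The class I sum was 1320 and 1415 in the FL, against 6986 and 5419 in the BM, and the granulocyte, class II, B cell, T cell and erythroid sums differed by more on the log scale between the BM samples than the class I sum did.

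The comparison of the fractions asks whether class I expression goes with BMP activation. In the FL none of the 10 genes was more than 2 times higher in GFP+ cells and 1, *Nlrc5*, was more than 2 times lower, at levels under 1 FPKM. Among all genes 16.6% were higher and 28.0% lower. In the BM none of the 10 passed in either direction, against 19.7% higher and 22.9% lower among all genes. *Tapbp* came nearest to the threshold, 1.997-fold lower in GFP+ cells of the FL and 1.97-fold higher in those of the BM. *Tap1* was 1.67-fold lower in FL GFP+ cells and 1.51-fold higher in BM GFP+ cells. The heavy chains differed little, with a GFP+ to GFP- ratio of 1.19 in the FL and 1.36 in the BM for *H2-D1* and of 0.854 and 0.951 for *H2-K1*. *B2m* had ratios of 0.882 and 1.41. When all samples were rescaled to one FPKM total, the log2 ratios of *H2-D1* became -0.008 (FL) and -0.010 (BM), while *Tapbp* passed 2-fold in the FL. That rescaling moved the share of higher calls among all 2-fold calls from 37.3% to 28.1% in the FL and from 46.2% to 28.3% in the BM. In the limma fit with tissue as a term, 0 of the 10 genes had an adjusted p under 0.05 or an unadjusted p under 0.05 for GFP, and 0.111% of all genes tested were called. The log2 fold changes of GFP+ against GFP- cells ranged from -0.25 for *Nlrc5* to 0.35 for *H2-D1*, with standard errors of 0.289 to 0.723 and limma adjusted p of at least 0.97. No difference was detectable in these samples, which does not show that the fractions are alike.

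Ratios between genes of one sample do not depend on how the samples were scaled. *Tap1* stood to *Tap2* at 0.429 in the GFP+ and 0.528 in the GFP- sample of the FL, with 0.932 and 0.770 in the BM, so that *Tap1* was the scarcer subunit in all 4 samples and less so in the BM. The sum of *H2-D1* and *H2-K1* over *B2m* was 0.690, 0.598, 0.732 and 0.897. *H2-D1* over *H2-K1* was 1.32 and 1.37 in the GFP+ cells of the 2 tissues and 0.952 and 0.959 in the GFP- cells of the FL and the BM, a split by fraction and not by tissue that has 1 sample behind each value. *Tapbp* over *Pdia3* was 0.173, 0.420, 1.22 and 0.471. *B2m* over *Erap1* was 12.6 and 20.8 in the FL, with 157 and 88.5 in the BM.

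Several other class I and class I-like heavy chain genes were also higher in the BM, some from FL levels near 0. The list held 34 symbols, of which 32 are in the tables and 20 reach 1 FPKM in a sample. Of the 20, 16 were more than 2 times higher in the BM in GFP+ cells and 16 in GFP- cells, none was lower by that rule, and 13 were higher in both, against 32.1%, 20.0% and 12.2% of all genes. The counts hold *H2-L*, which repeats *H2-D1*, the identical *H2-T9* and *H2-T22*, and genes outside the class I region such as *Mr1* and *Hfe*. They also hold *H2-Q2*, *H2-Q8*, *H2-M5* and, in GFP- cells only, *H2-T3*, which reach 1 FPKM only in the BM. The median log2 ratio of the 20 was 1.91 in GFP+ and 1.31 in GFP- cells. *H2-Q7*, which encodes a Qa-2 chain, had 0.104 in the GFP+ and 2.29 in the GFP- sample of the FL, with 234.7 and 289.7 in the BM. *H2-Q8* was listed at 0 in both FL samples and at 161.5 and 126.4 in the BM. *H2-Q4* had 2.11, 0.398, 61.7 and 51.3, and *H2-Q5* had 2.07, 3.78, 66.9 and 58.9. The BM to FL ratios of *H2-Q4*, *H2-Q5* and *H2-Q7* were above those of *H2-K1*, and *H2-Q7* over *H2-K1* was 0.00045 and 0.00843 in the FL against 0.189 and 0.221 in the BM. *H2-T23*, which encodes the Qa-1 chain that presents signal peptides to natural killer receptors, had 48.0, 38.3, 177.2 and 178.7. *H2-T22* and *H2-T9* are listed with the same values, 4.95, 9.99, 50.5 and 23.7. Between the fractions, *H2-Q10*, singled out after its values were seen, had 7.53, 0.192, 7.71 and 0.260, and for GFP it did not pass (log2 fold change 2.81 ± 0.815, limma adjusted p = 0.735). *Mr1* was lower and *Hfe* higher in GFP+ cells of both tissues. *Mr1*, whose product presents vitamin B metabolites, had 0.483 and 4.88 in FL cells (GFP+ first), with 4.60 and 10.17 in BM cells. *Hfe*, which takes part in iron sensing, had 12.8, 0, 27.0 and 11.5. Of the 18 genes of this list in the limma fit, 6 were called higher in the BM, against 2.17% of all genes tested. Among them were *H2-Q7* (log2 fold change 7.10 ± 0.607, limma adjusted p = 0.000594) and *H2-T23* (2.03 ± 0.353, limma adjusted p = 0.0224). *H2-L*, 1 of the 6, is the value of *H2-D1* again. *H2-Q8*, also 1 of the 6, entered the fit only through its BM values. For GFP 0 of the 18 passed, and 0 of the genes of the 3 lists that follow, against 0.111% of all genes tested. The Qa genes share sequence, and 24.1% of the 50-base windows of *H2-Q7* occur in other genes.

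The inducible proteasome subunit genes *Psmb8* and *Psmb9* rose in the BM as well. *Psmb8* had 165.6 and 146.1 in FL cells (GFP+ first), with 658.6 and 569.2 in BM cells (log2 fold change 1.97 ± 0.292, limma adjusted p = 0.0111). *Psmb9*, the neighbour of *Tap1*, had 64.9, 81.8, 263.7 and 269.9 (1.86 ± 0.322, limma adjusted p = 0.022). *Psmb10* had 114.6, 97.7, 300.1 and 216.5 and did not pass (limma adjusted p = 0.0864). Of the 7 genes of the list, 5 were more than 2 times higher in the BM in GFP+ cells and 3 in GFP- cells, and none was lower, against 32.1% and 20.0% of all genes higher. The activator subunit *Psme1* had 413.8, 398.3, 498.9 and 587.9, a narrow range beside the catalytic subunits. Set against the constitutive catalytic subunit gene *Psmb5*, a pair chosen after the values had been seen, *Psmb8* had a ratio of 0.132 and 0.161 in the FL, with 0.909 and 1.60 in the BM. This ratio moved by more than *Psmb8* did, so its shift also holds a lower *Psmb5* in the BM and is not that of *Psmb8* alone.

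**Figure D4:**
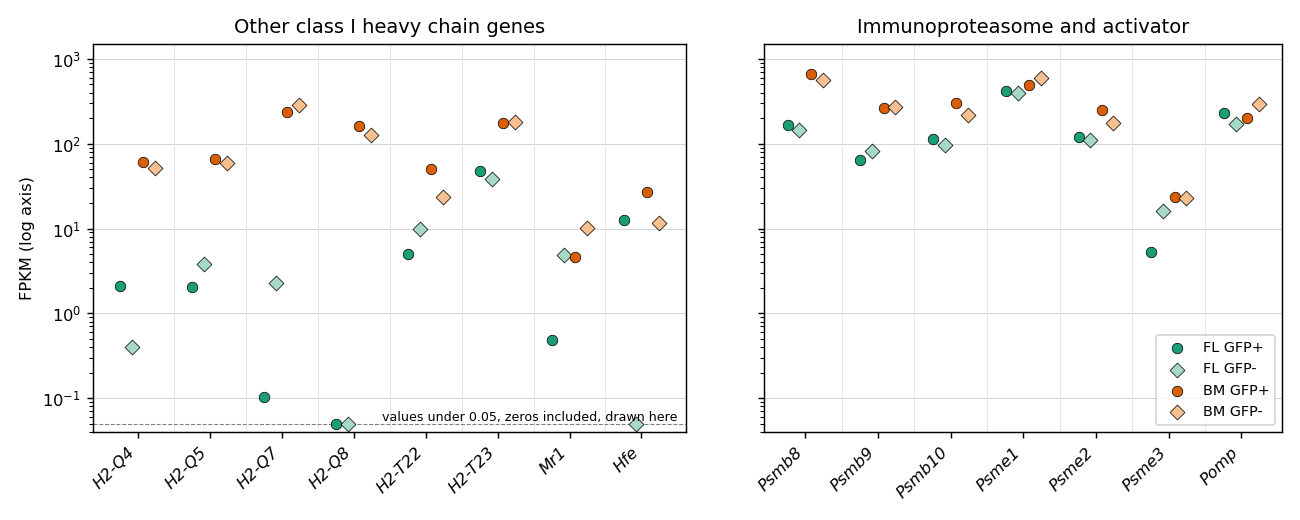
FPKM (log axis) of other class I heavy chain genes (left) and of immunoproteasome and activator genes (right) in the 4 samples, 1 point per sample. *H2-Q8* was listed at 0 in both FL samples and *Hfe* in FL GFP- cells, and the BM points of *H2-Q4*, *H2-Q5*, *H2-Q7*, *H2-Q8*, *H2-T22* and *H2-T23* all lie above the FL points.

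Among 18 further genes of peptide supply, glycoprotein folding and export, 3 were more than 2 times higher in the BM in GFP+ and 4 in GFP- cells, and 1 was lower in GFP+ cells, shares that are not above the 32.1% of all genes in GFP+ cells and near the 20.0% in GFP- cells. *Hspa5*, the endoplasmic reticulum chaperone BiP, was higher in both fractions, at 226.1 in the GFP+ and 178.0 in the GFP- sample of the FL, with 567.6 and 643.1 in the BM (log2 fold change 1.59 ± 0.304, limma adjusted p = 0.0335). *Canx*, which encodes the calnexin that first holds the heavy chain, had 64.9, 74.7, 97.2 and 94.4. The oxidoreductase gene *Pdia4*, singled out after its values were seen, had 731.2 in FL GFP+ cells against 64.4 in FL GFP- cells and 490.2 and 493.7 in the BM, but these values are also listed for the microRNA gene *Mir704*, so the 2 cannot be told apart.

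Of 24 genes that regulate class I, 8 were more than 2 times higher in the BM in GFP+ cells and 6 in GFP- cells, with 1 lower in each, shares near the 32.1% and 20.0% of all genes. *Irf8*, an interferon regulatory factor of myeloid and B cells, had 15.1, 4.79, 320.0 and 131.7 (log2 fold change 4.42 ± 0.426, limma adjusted p = 0.00124). It was also the 1 gene of the 24 more than 2 times higher in GFP+ cells of both tissues, a share near that of all genes (443 of 13609). *Ciita*, the class II counterpart of *Nlrc5*, was listed at 0 in FL GFP+ cells and had 0.166, 40.3 and 5.39 in the others. It is 1 of 2 genes in the BM counts of this list that passed the filter only through their BM values, so these calls were fixed by the filter. *Ciita* is itself a gene of the class II list given above. *Irf1*, a direct activator of class I genes, had 75.9 and 23.8 in FL cells (GFP+ first), with 56.0 and 64.7 in BM cells, so that FL GFP- cells alone were low. The X box factor *Rfx5* had 13.2, 13.3, 8.20 and 4.72.

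The genes whose pattern over the 4 samples lay nearest to the mean pattern of *H2-D1*, *H2-K1* and *B2m* were sought among 8680 genes that reach 10 FPKM, by the root mean square distance of centred log2(FPKM + 1) values. They were *Lamtor4* (distance 0.070), *Hist1h1c* (0.099), *Alas1* (0.101), *Mt1* (0.121) and *Igfbp7* (0.122). *Lamtor4*, a gene of the lysosomal Ragulator complex, had 11.05 and 9.90 in FL cells (GFP+ first), with 59.4 and 48.8 in BM cells. By the same measure *H2-D1*, *B2m* and *H2-K1* themselves lay at 0.135 to 0.150, *Nlrc5* at 0.275, *Tap1* at 0.277, *Tapbp* at 0.475, *Tap2* at 0.526, *Calr* at 0.740, *Pdia3* at 1.02 and *Erap1* at 1.56. Distances over 4 samples describe these libraries only.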

How the data were processed

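RNA-seq of 4 samples, 1 per group, was analysed from the tables as deposited. Per the labels and the study's methods, the authors made SMARTer libraries and computed FPKM with TopHat and Cufflinks (2.2.1), correcting for fragment bias and multiply mapped reads, and normalised across samples with Cuffnorm. The methods name NCBI37/mm9 and the processing notes mm10. Gene positions are from GENCODE vM1 on NCBI37/mm9. The study's methods give the mapped reads of each library, and the files hold no read counts per gene.

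Levels are FPKM as deposited. Calls between single samples use the study's fold of more than 2 times, which the study applied to GFP contrasts in both tissues together and which is applied here to each GFP and tissue contrast, on genes reaching 1 FPKM in any sample. Log2 ratios use a pseudocount of 1 and understate changes of low genes. limma 3.58.1 (R 4.3.3, terms for tissue and GFP, eBayes with trend, Benjamini-Hochberg) was run on genes reaching 1 FPKM in 2 or more samples. The code was also run on simulated data with equal, independent noise in every gene and a tissue contrast that was the same in both fractions. That run checks the code and not the p-values given here. Each tissue and fraction stands for 2 samples, which are not replicates of a group. The 1 residual degree of freedom per gene holds the difference of the tissue contrast between the fractions. The error comes mostly from the trend over all genes (7.52 prior degrees of freedom), so the p-values do not measure a spread between replicates.

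Members and gene lists were chosen with earlier results of these data known, and the ISRE consensus, the within-sample ratios and the fits without a library were added after seeing the data. Named beyond the 10 genes are list genes that reach 10 FPKM and pass 2-fold in one direction in both tissue or both GFP contrasts, else abundant ones. *Pdia4*, *Psmb5*, *Irf1*, *Rfx5*, *Psme1* and *Canx* were named after their values were seen. The other steps used Python 3.11.15, numpy 2.4.6 and pandas 2.3.3. 1 gene of the regulator list is counted but not reported here by name.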

Additional observations from a re-analysis of the deposited data

Results flagged for a closer look

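For 7 of the 10 genes the GFP+ sample lay on opposite sides of the GFP- sample in the FL and in the BM. The share of all genes that do so was not computed, so this count cannot be read as particular to these genes. Each value is the BM difference less the FL difference between GFP+ and GFP- cells, in log2(FPKM + 1) and from 1 sample per group, and none of these differences was tested. Lower in FL GFP+ and higher in BM GFP+ cells were *Tapbp* (1.95), *Tap1* (1.30), *Tap2* (0.75) and *B2m* (0.68). Higher in FL GFP+ and lower in BM GFP+ cells were *Calr* (-0.95), *Erap1* (-0.85) and *Pdia3* (-0.68). After rescaling to a common FPKM sum, the BM ratio of *Tap2* became -0.13, so that it was then on the same side in both tissues, and the other 6 genes stayed opposite.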

How the results depend on the processing

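No paired analysis was possible because each group has 1 sample and the labels give no replicate numbers. Of the 120 recomputed ratios of single genes, none past 2-fold changed sign. Sign changed for 4 smaller ones, all on rescaling to the same FPKM total, and among these were *Calr* in BM over FL GFP+ cells (-0.19) and *Tap2* in the BM (-0.13). Genes past 2-fold in the FL GFP comparison numbered 1 as reported, 4 at 1.5-fold, 0 with a filter of 10 FPKM, and 2 after rescaling to the same total or the same upper quartile. In the BM GFP comparison they numbered 2 at 1.5-fold against 0, and in BM over FL GFP- cells 3 at 4-fold against 6. The limma tissue effect called 3 of the 10 genes, 0 without the trend (where limma called 0 of all genes, 1581 at an unadjusted p under 0.05), 5 with microRNA and small nucleolar RNA genes left out, and 0 to 3 when each library was left out with the GFP term. The lowest of these came without BM GFP+. *B2m* also lost its call with a pseudocount of 0.1 (adjusted p = 0.0946), without a filter (0.0855) and on rescaling to the same total (0.0677). The tissue effect of *Pdia3* reversed to -0.24 on that rescaling, which moved the median of all genes from 0.088 to -0.371 and the share of higher calls from 88.2% to 75.9%. Among all genes, 254 were called higher and 34 lower in the BM as reported, against 70 and 10 with a pseudocount of 0.1, 167 and 22 without a filter, 158 and 18 without the GFP term, 420 and 65 without those short RNAs, 164 and 52 on rescaling to the same total, 93 and 55 without BM GFP-, and 9 and 7 without BM GFP+. For GFP 5 were called higher and 8 lower, against 1 and 0 with a pseudocount of 0.1, 0 and 0 without the trend or the short RNAs (685 and 755 genes at an unadjusted p under 0.05), 3 and 1 without the tissue term, 6 and 25, 3 and 0, and 6 and 0 without FL GFP+, FL GFP- and BM GFP-, and 54 and 381 without BM GFP+. *Tap1* gained a call with the filter of 10 FPKM (adjusted p = 0.0403) and, like *Tapbp*, without the short RNAs (0.0235 and 0.0381). The GFP effect called 0 of the genes tested under each alternative run, with each library left out too (0 to 0), but *Nlrc5* did not enter the fits with the filter of 10 FPKM or without either BM library. Low genes, *Nlrc5* above all, are limited by detection: its log2 ratio of BM over FL in GFP+ cells went from 1.97 to 4.16 with a pseudocount of 0.1.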
